A study of Homo sapiens with 12 samples.

Results

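Messenger RNA was sequenced in PC9-OR cells, a culture model of non-small cell lung cancer derived from the established line PC9 and named for its resistance to osimertinib, an inhibitor of the receptor tyrosine kinase EGFR. The comparison described here sets 3 libraries of cells given dauricine alone (DAC 1 to DAC 3) against 3 libraries of cells given neither compound (Control 1 to Control 3). These are 6 of the 12 libraries of the series, chosen by their treatment labels and not by any measured value. The other 6 come from cells given osimertinib alone (OSI) and cells given both compounds (DAC+OSI), 3 libraries each. All groups are the same resistant line, so nothing here compares resistant with sensitive cells. The labels give no dose, no exposure time and no vehicle for the Control cells. They also do not say whether the libraries of a group came from separate cultures, so the spread behind the p-values may be technical.

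Dauricine is a bisbenzylisoquinoline alkaloid from plants. Cells watch the sterol content of the membrane of the endoplasmic reticulum: when it is low, the sensor SCAP carries the membrane-bound transcription factor SREBP2 to the Golgi, where it is cut free and switches on the genes of cholesterol synthesis and uptake, and INSIG proteins hold the complex back when sterol is plentiful. SREBP1 does the same mainly for fatty acid genes. The opposite arm is run by the LXR receptors, which sense oxidised sterols and switch on genes of cholesterol export.

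The DAC libraries held 53.3, 57 and 49.2 mega-counts (M) and the Control libraries 60.9, 43.2 and 42.1 M. The limit that a count of 0 allows, 3 counts, lies between 0.0527 and 0.061 CPM in DAC libraries and between 0.0493 and 0.0712 CPM in Control libraries, where CPM gives a gene's counts relative to each M counted in its library. These limits cover counting error only. Whether PCR copies of one molecule were counted as separate reads is not known. Control 2 stood apart from Control 1 and Control 3: across genes, its deviation from the group mean followed gene GC content with a Spearman rho of 0.56, against -0.48 and -0.37 in the other Control libraries and between -0.059 and 0.047 in the DAC libraries. Results are therefore also given from a 10-library fit, which leaves out Control 2 and the DAC+OSI library that stood apart in the same way. The summed level of 6 epithelial markers was 14774 to 16015 CPM in DAC libraries and 9713 to 12366 CPM in Control libraries. The summed level of 4 lung lineage markers was 1.46 to 1.78 CPM in DAC libraries and 1.36 to 1.42 CPM in Control libraries. Most of it was NAPSA, at 1.11 to 1.61 CPM in DAC libraries and 0.852 to 1.09 CPM in Control libraries. SLC34A2 reached 0.233 CPM in DAC and 0.473 CPM in Control libraries, NKX2-1 0.11 CPM in DAC and 0.0947 CPM in Control libraries, and SFTPB was at or near the limit in all 6.

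Of 39266 genes in the count table, 20820 passed a filter on low counts and were tested with the quasi-likelihood test of edgeR, with Benjamini-Hochberg adjustment over all of them and a call at an adjusted p under 0.05. Called were 1964 of them, or 9.43%. Higher in DAC were 1109 genes (5.33%), and lower were 855 (4.11%). In all 1964 the 3 DAC libraries lay on one side of the 3 Control libraries, as they did in 39.1% of all genes tested. The rises were larger than the falls: 548 genes rose and 233 fell at least 2-fold, 170 rose and 47 fell at least 4-fold, and 59 rose and 13 fell at least 8-fold. The median log2 fold change of all genes was 0.01. Leaving out DAC 3 lowered the calls to 782, and leaving out DAC 1 to 943, DAC 2 to 1114, Control 2 to 1120, Control 3 to 1236 and Control 1 to 1315, while the 10-library fit called 5541.

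Among genes with 5 CPM or more in at least one group, the largest rise was that of GAS6-AS1, a long noncoding RNA transcribed next to the growth factor gene GAS6. It stood at 126, 116 and 119 CPM in DAC libraries and 3.65, 4.19 and 4.45 CPM in Control libraries, a 29.4-fold rise with a log2 fold change of 4.88 ± 0.14 (SE, n = 3 each; edgeR adjusted p = 9.09e-10), so that the lowest DAC library was far above the highest Control library. GAS6 itself did not pass the test. Its level was 62.9, 62.5 and 65.1 CPM in DAC libraries and 28.1, 44.7 and 31.6 CPM in Control libraries (log2 fold change 0.87 ± 0.31, edgeR adjusted p = 0.101). GAS6, chosen for its place beside the noncoding gene after its values were seen, also did not overlap between the groups, and its call depended on the fit, being made without the low-count filter, in a fit of the 6 libraries alone, in the 10-library fit, with a correction for GC content and with a replicate block. The labels do not say whether strand was kept, so reads of an antisense gene and of the gene it overlaps cannot be told apart.

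Noncoding genes of the IGFL cluster, a group of genes for small secreted proteins of the insulin-like growth factor-like family, were also among the largest rises. IGFL2-AS1 was at 66.3, 44.5 and 63.2 CPM in DAC libraries and 4.33, 3.48 and 5.12 CPM in Control libraries, 13.4-fold higher (edgeR adjusted p = 8.75e-07). The pseudogene IGFL1P1 was at 8.04, 5.15 and 7.82 CPM in DAC libraries and 0.47, 0.379 and 0.417 CPM in Control libraries, 16.4-fold higher (edgeR adjusted p = 3.1e-07). DAC 2 was the lowest DAC library for both genes, and neither overlapped Control, which the rule for choosing the largest rises requires. The protein-coding IGFL2 was not called, with 0.386, 0.513 and 0.37 CPM in DAC libraries and 0.47, 0.355 and 0.348 CPM in Control libraries (edgeR adjusted p = 0.932), while IGFL4 rose to 4.1, 3.47 and 3.89 CPM in DAC libraries, against 1.65, 0.971 and 1.6 CPM in Control libraries (edgeR adjusted p = 0.0052). IGFL3 was called at a very low level, with 0.405, 0.325 and 0.292 CPM in DAC libraries and 0.0324, 0.0474 and 0 CPM in Control libraries (edgeR adjusted p = 0.0145), where the Control values are all under the limit of 3 counts, and its call ended without DAC 1, DAC 3, Control 1 or Control 3. IGFL2, IGFL3 and IGFL4 were looked up after the values of their neighbours were seen. Members of a family can share reads, so the split of counts between IGFL genes is uncertain. The same holds for ALOXE3P1, a pseudogene of a lipoxygenase gene, with 6.72, 5.66 and 8.17 CPM in DAC libraries and 0.567, 0.521 and 0.742 CPM in Control libraries (edgeR adjusted p = 2.16e-06). Its parent ALOXE3 lay on the other side, with 15, 17.8 and 14.4 CPM in DAC libraries and 27.2, 44.8 and 28.6 CPM in Control libraries (edgeR adjusted p = 0.0397, and up to 0.162 over the alternatives).

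**Figure D1:**
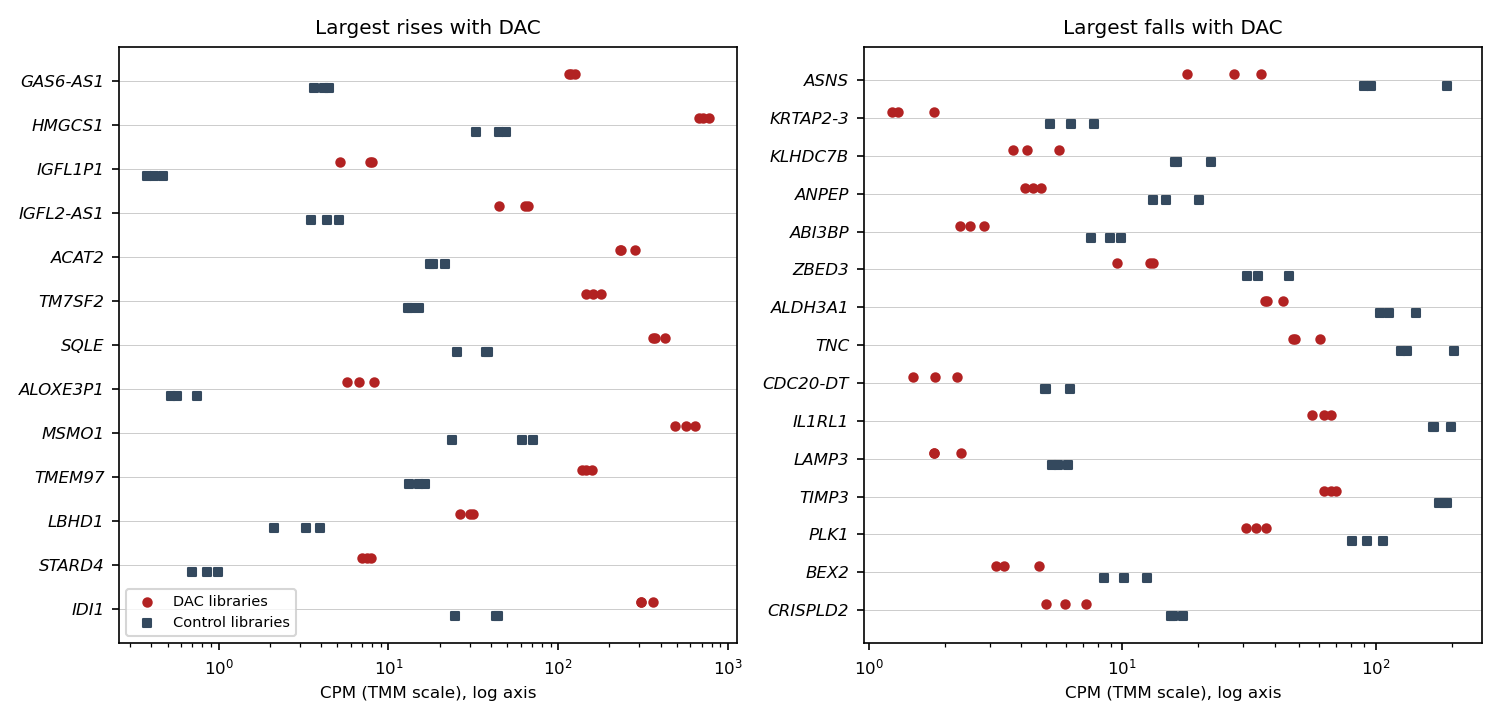
Levels in CPM on a log axis, with 1 point for each DAC library (circles) and each Control library (squares), for 13 of the 15 largest rises on the left and the 15 largest falls on the right. The groups are apart in every gene shown, which the rule for choosing them requires. HMGCS1 lies between 670 and 775 CPM in DAC libraries and between 32.7 and 49.3 CPM in Control libraries.

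Of the 15 largest rises, 10 are genes of sterol synthesis, sensing or transport, and the others are the noncoding genes and pseudogenes above and LBHD1. In the mevalonate arm, which builds the isoprene units of cholesterol from acetyl-CoA, 7 of 9 members rose and 0 fell, with a median log2 fold change of 2.85. HMGCS1, which makes HMG-CoA, was at 711, 669.8 and 775 CPM in DAC libraries and 44.7, 32.7 and 49.3 CPM in Control libraries, 17.0-fold higher (log2 fold change 4.09 ± 0.22, edgeR adjusted p = 3.1e-07). MVK, the mevalonate kinase, rose 4.08-fold. The next kinase, PMVK, was not called and had 13.0, 13.4 and 13.7 CPM in DAC libraries and 12.4, 18.4 and 14.0 CPM in Control libraries, with overlapping groups (log2 fold change -0.16 ± 0.22, edgeR adjusted p = 0.711). GGPS1, which leads out of the sterol route to geranylgeranyl groups, was at 18.7, 19.0 and 22.6 CPM in DAC libraries and 12.1, 4.03 and 11.4 CPM in Control libraries and was not called (edgeR adjusted p = 0.103). Its Control 2 value was the low one of that group.

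From squalene to cholesterol 12 of 14 members rose and 0 fell, with a median of 2.45. FDFT1, which joins farnesyl units into squalene, was at 819, 751 and 859.6 CPM in DAC libraries and 218, 224 and 220.2 CPM in Control libraries (log2 fold change 1.87 ± 0.12, edgeR adjusted p = 1.14e-06). SC5D, which places a double bond in the sterol ring, was at 163, 152 and 194 CPM in DAC libraries and 30.4, 19.2 and 33.1 CPM in Control libraries (log2 fold change 2.62 ± 0.27, edgeR adjusted p = 7.29e-05). These groups were far apart, although MSMO1, with 568, 486 and 635 CPM in DAC libraries and 71.3, 23.7 and 61.4 CPM in Control libraries, shows how much Control 2 could differ from its group. The step that removes the double bond at carbon 14 of the ring can be done by either of 2 reductases, and they parted. TM7SF2 was at 159, 146 and 178 CPM in DAC libraries and 13.1, 15.2 and 13.5 CPM in Control libraries (11.6-fold, edgeR adjusted p = 5.35e-06), whereas LBR, which is also a protein of the inner nuclear membrane, was at 77.1, 81.1 and 87.0 CPM in DAC libraries and 76.9, 39.0 and 65.0 CPM in Control libraries (edgeR adjusted p = 0.387). FAXDC2, a relative of the sterol oxidases, was not called either, with a log2 fold change of -0.57 ± 0.18 (edgeR adjusted p = 0.0639). Both counts stayed at 7 and 12 with any 1 of the 6 libraries left out, and were 8 and 12 in the 10-library fit, which also called 1 member of the second list lower.

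Enzymes that lead isoprenoids away from sterols had no calls, where 9.43% of all genes tested were called. Of 10 such genes, among them the farnesyl transferase subunits FNTA and FNTB and the ubiquinone genes COQ2 and PDSS1, 0 rose and 0 fell, with a median of 0.03 and log2 fold changes of 0.45 for FNTA, -0.13 for FNTB and -0.31 for PDSS1. By edgeR 0 of the 10 had an unadjusted p under 0.05, and DESeq2 and limma-voom called 0, whereas the 10-library fit called 1 higher and 1 lower. An equal 0 of 9 tested LXR targets and genes of sterol export were called by edgeR in either direction, with a median of -0.06. Of the 9, 1 was higher and 1 lower at an unadjusted p under 0.05, DESeq2 called 1 higher and 1 lower, limma-voom called 0, and the 10-library fit called 2 higher and 2 lower. ABCA1, the pump that loads cholesterol onto apolipoprotein A-I and a standard LXR target, was at 55.0, 53.1 and 52.6 CPM in DAC libraries and 53.7, 58.8 and 55.4 CPM in Control libraries, and the groups overlapped (log2 fold change -0.06 ± 0.12, edgeR adjusted p = 0.798).

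Among the genes of sterol sensing and uptake 7 of 17 rose and 0 fell, with a median of 0.63. The count was 5 or 6 with 1 library left out and 13 in the 10-library fit. The feedback inhibitor INSIG1 was at 135, 132 and 153 CPM in DAC libraries and 18.5, 16.5 and 21.5 CPM in Control libraries, and the intracellular sterol carrier STARD4 at 7.51, 6.96 and 7.88 CPM in DAC libraries and 0.988, 0.852 and 0.695 CPM in Control libraries (edgeR adjusted p = 1.76e-05). TMEM97, a sterol-responsive membrane protein that binds NPC1 and is also known as the sigma-2 receptor, rose 9.86-fold to 145, 137 and 158 CPM in DAC libraries, against 15, 13.2 and 16.4 CPM in Control libraries (edgeR adjusted p = 3.1e-07).

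Of the genes for SREBP1, SREBP2, SCAP and the proteases, only that for SREBP2 was called in the main fit. SREBF2, which encodes SREBP2, was at 403, 402 and 394 CPM in DAC libraries and 227, 273 and 236 CPM in Control libraries, 1.63-fold higher with no overlap (log2 fold change 0.70 ± 0.17, edgeR adjusted p = 0.0199), but the call ended on leaving out DAC 1, DAC 2, DAC 3, Control 1 or Control 3, with adjusted p values of up to 0.101. SREBF1 was at 205, 195 and 192 CPM in DAC libraries and 135, 194 and 145 CPM in Control libraries (edgeR adjusted p = 0.313). The values of SREBF1 did not overlap apart from Control 2, which lay between DAC 2 and DAC 3. SREBF1 was called higher in the 10-library fit and with a correction for GC content. SCAP and the 2 proteases that cut SREBPs, MBTPS1 and MBTPS2, were not called, with log2 fold changes of -0.28 ± 0.29, 0.18 ± 0.11 and 0.18 ± 0.14. NPC1, which carries cholesterol out of lysosomes, was at 103, 90.4 and 101 CPM in DAC libraries and 69.1, 76.1 and 74.1 CPM in Control libraries (edgeR adjusted p = 0.04). This call of NPC1 ended under 9 of the 15 alternatives, among them each of the 6 that left out 1 library, with adjusted p values of up to 0.207.

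**Figure D2:**
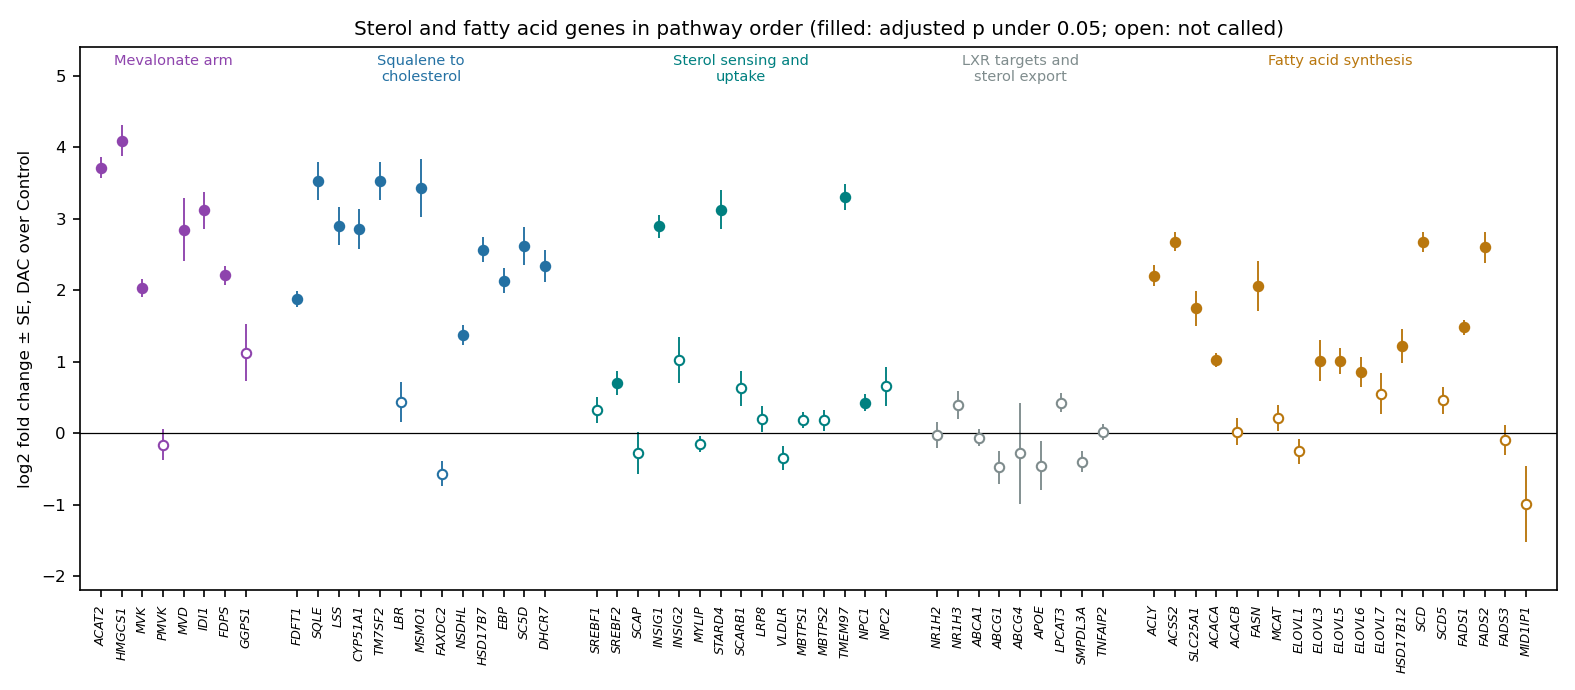
Log2 fold change of DAC over Control with its SE for the tested genes of 5 lists that are reported singly, in pathway order, with filled circles for an edgeR adjusted p under 0.05 and open circles for genes not called. In the mevalonate arm 6 of the 8 genes drawn are filled, and in the list from squalene to cholesterol 11 of 13, while the 9 genes of the LXR list are all open and lie between -0.48 and 0.43.

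The start sites of the sterol genes were looked at in promoter windows of RefSeq (GRCh38.p14), each 250 bases before to 50 bases after a gene's start. A gene with several windows was counted once, if any of them held the letters searched for. The letters CCAAT, the core of the site of the factor NF-Y, were searched on both strands. They were present in 17 of the 19 called members of the 3 sterol lists that had a window (89.5%), in 3 of the 13 members not called (23.1%) and in 41.6% of the 13142 tested genes with a window. The share of called members was between 73.1% and 94.4% when the calls were made under leave-one-out, block, GC and 10-library alternatives. TCACNCCAC, a core of the sterol regulatory element, was in a window of 1 of the 19 called members, against 1.48% of tested genes. The called member was SREBF2 itself. A match is a description of the letters only. ACAT2 had no window. Printed here, as the member whose window holds both motifs and as 2 called members of the mevalonate arm, are 150 bases before to 20 bases after the start of SREBF2 (chr22:41832955-41833124, plus strand), HMGCS1 (chr5:43313393-43313562, minus strand) and FDPS (chr1:155308716-155308885, plus strand), with TCACNCCAC and CCAAT, or ATTGG for its other strand, in capitals.
SREBF2: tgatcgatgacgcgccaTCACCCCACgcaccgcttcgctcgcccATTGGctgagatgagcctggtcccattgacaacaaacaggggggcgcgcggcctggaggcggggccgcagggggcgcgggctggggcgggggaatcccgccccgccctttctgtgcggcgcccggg
HMGCS1: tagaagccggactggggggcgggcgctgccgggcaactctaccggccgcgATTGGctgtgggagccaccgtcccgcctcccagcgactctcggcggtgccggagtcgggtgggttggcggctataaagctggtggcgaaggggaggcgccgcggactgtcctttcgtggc
FDPS: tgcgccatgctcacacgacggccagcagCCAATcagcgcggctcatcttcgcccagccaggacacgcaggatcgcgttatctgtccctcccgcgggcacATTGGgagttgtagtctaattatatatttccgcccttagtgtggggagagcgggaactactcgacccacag

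Fatty acid synthesis rose beside sterol synthesis. In this list 12 of 19 tested members rose and 0 fell, with a median log2 fold change of 1.01, and 10 or 11 rose with 1 library left out. ACSS2, which makes acetyl-CoA from acetate, was at 823, 755 and 947 CPM in DAC libraries and 127, 132 and 136 CPM in Control libraries, 6.39-fold higher (log2 fold change 2.67 ± 0.13, edgeR adjusted p = 2.99e-07). ACLY, which makes it from citrate, was at 724, 670.1 and 841 CPM in DAC libraries and 148, 179 and 158 CPM in Control libraries (4.61-fold, edgeR adjusted p = 2.16e-06), and the mitochondrial citrate carrier SLC25A1 rose 3.35-fold. FASN, the synthase of palmitate, was at 2918, 2600.2 and 2931 CPM in DAC libraries and 553, 849.9 and 633 CPM in Control libraries (edgeR adjusted p = 0.0028). Its groups were far apart although Control 2 was the highest Control library.

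Of the desaturases 3 rose and 2 were not called. SCD, which makes oleate from stearate, was at 9574, 8510.2 and 9301 CPM in DAC libraries and 1487, 1278 and 1532 CPM in Control libraries, 6.37-fold higher (edgeR adjusted p = 3.1e-07). FADS2 and FADS1, which desaturate polyunsaturated fatty acids, rose 6.05-fold and 2.79-fold (edgeR adjusted p = 1.45e-05 and 5.35e-06). SCD5 and FADS3, relatives of these enzymes, were not called, with log2 fold changes of 0.46 ± 0.19 and -0.09 ± 0.21. Of the 2 acetyl-CoA carboxylases, the cytosolic ACACA rose to 311, 298 and 315 CPM in DAC libraries, against 147, 153 and 153 CPM in Control libraries (edgeR adjusted p = 4.54e-05). The mitochondrial ACACB overlapped, with 11.1, 11.6 and 10.9 CPM in DAC libraries and 9.59, 12.3 and 11.1 CPM in Control libraries. CCAAT was in 8 of the 10 called members of this list that had a promoter window (80%).

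Activation and storage of fatty acids moved in single genes. Among 12 genes of activation and uptake 5 rose and 0 fell, with 2 to 4 when 1 library was left out. ACSL1, an acyl-CoA synthetase, rose 4.07-fold to 327, 289 and 351 CPM in DAC libraries, against 78.6, 70.9 and 88.2 CPM in Control libraries (edgeR adjusted p = 5.35e-06). ACSL4, which prefers arachidonate and is linked to ferroptosis, a death by lipid peroxidation, was at 267, 264 and 298 CPM in DAC libraries and 152, 80.5 and 135 CPM in Control libraries (edgeR adjusted p = 0.0215). The call of ACSL4 ended on leaving out DAC 1, DAC 2, DAC 3, Control 2 or Control 3, with adjusted p values of up to 0.087. Of 23 genes of triglycerides and lipid droplets 3 rose and 1 fell, with a median of -0.04, and 2 or 3 rose with 1 library left out. The shares over all genes tested were 5.33% and 4.11%. LPIN1, a phosphatase that makes diacylglycerol, was at 281, 243 and 281 CPM in DAC libraries and 79.6, 77.5 and 82.3 CPM in Control libraries (edgeR adjusted p = 2.16e-06), and PNPLA3, a lipase relative known from fatty liver, rose 4.37-fold (edgeR adjusted p = 2.31e-05). The droplet coat gene PLIN2 was not called, with a log2 fold change of -0.52 ± 0.22.

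Among phospholipid genes 7 of 22 rose and 1 fell, with a median of 0.32, and 4 to 7 rose with 1 library left out. LPCAT1, which remakes phosphatidylcholine with saturated chains, was at 182, 180.4 and 202 CPM in DAC libraries and 66.0, 66.2 and 68.1 CPM in Control libraries (2.82-fold, edgeR adjusted p = 4.48e-06). PCYT2, of phosphatidylethanolamine synthesis, rose 3.03-fold (edgeR adjusted p = 0.000455), and CRLS1, the cardiolipin synthase, rose to 4.25, 4.46 and 4.48 CPM in DAC libraries, against 1.22, 1.47 and 0.672 CPM in Control libraries (edgeR adjusted p = 0.000675). In sphingolipid metabolism 3 of 22 rose (2 or 3 with 1 library left out), against 5.33% of all genes tested. Among them were the ceramide synthase CERS4 (2.66-fold) and the ceramidase ACER2 (2.88-fold), which act in opposite directions. In fatty acid oxidation 4 of 21 rose and 0 fell, none of them at least 2-fold, and 2 or 3 rose with 1 library left out. The entry enzyme CPT1A was not called, with a log2 fold change of 0.14 ± 0.13.

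More genes of the lysosome were called higher than lower, and the medians of both lists were small. Shares over all genes tested were 5.33% higher and 4.11% lower. Of 37 hydrolases 11 rose and 2 fell, with a median of 0.24, but only 3 to 5 rose when any 1 of the 6 libraries was left out, and 18 rose and 2 fell in the 10-library fit. NEU1, a sialidase, was at 86.8, 90.1 and 103 CPM in DAC libraries and 37.1, 47.5 and 38.9 CPM in Control libraries (log2 fold change 1.18 ± 0.13, edgeR adjusted p = 0.000173). LIPA, which frees cholesterol from its esters in lysosomes, was at 112, 107 and 124 CPM in DAC libraries and 51.8, 28.5 and 48.5 CPM in Control libraries (edgeR adjusted p = 0.00753). The protease CTSB went the other way, with 100.4, 95.8 and 97.1 CPM in DAC libraries and 155, 223 and 181 CPM in Control libraries (edgeR adjusted p = 0.00368). Of 20 membrane proteins of the lysosome 7 rose and 0 fell, with a median of 0.40 and with 4 or 5 when 1 library was left out. GPNMB, a glycoprotein of lysosomes, rose 4.96-fold at a low level, with 4.6, 3.75 and 4.11 CPM in DAC libraries and 0.924, 0.592 and 0.974 CPM in Control libraries (edgeR adjusted p = 7.22e-06). The sialic acid exporter SLC17A5 rose 2.28-fold (edgeR adjusted p = 0.000496).

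The proton pump that acidifies lysosomes had 5 of 22 subunit and accessory genes called higher, with a median of 0.39. This count was 0 on leaving out DAC 1 or DAC 3, 1 without DAC 2, Control 2 or Control 3, 2 without Control 1, and 15 in the 10-library fit. In autophagy 8 of 38 rose and 0 fell, with 5 or 6 when 1 library was left out. The counts of both lists stand beside 5.33% of all genes tested called higher. The cargo receptor SQSTM1 was at 567, 545 and 583 CPM in DAC libraries and 291, 314 and 296 CPM in Control libraries (log2 fold change 0.91 ± 0.10, edgeR adjusted p = 0.000146), and ATG9B was at 132, 107 and 101 CPM in DAC libraries and 27.2, 28.0 and 31.4 CPM in Control libraries (edgeR adjusted p = 3.13e-06). WIPI1, which binds the membranes of forming autophagosomes, rose 2.81-fold (edgeR adjusted p = 0.000168). TFEB, the transcription factor of lysosome genes, and its relative TFE3 were not called, with log2 fold changes of -0.25 ± 0.26 and 0.01 ± 0.15. The TFEB site TCACGTGA was in 1 of the 11 lysosome genes called higher that had a promoter window, against 1.96% of tested genes.

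**Figure D3:**
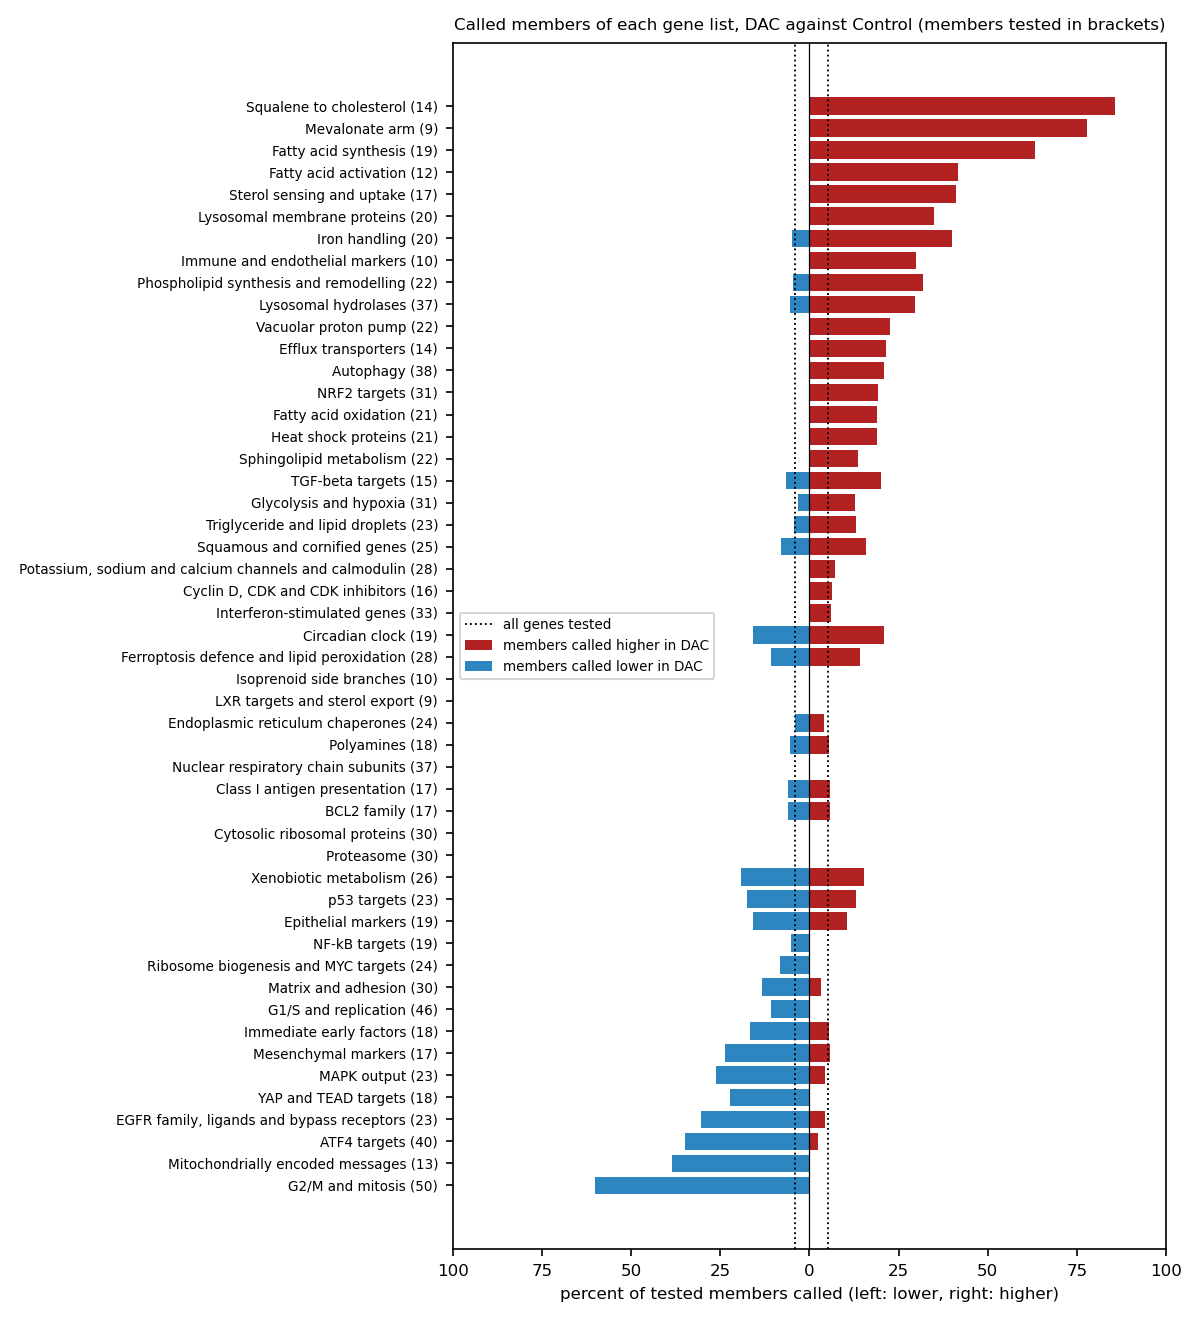
Percent of tested members of each gene list called higher in DAC (bars to the right) and lower in DAC (bars to the left), for lists with at least 9 tested members, whose number stands in brackets. Dotted lines mark the shares of all genes tested, 5.33% higher and 4.11% lower. The lists from squalene to cholesterol, of the mevalonate arm and of fatty acid synthesis reach farthest to the right, and the list of G2/M and mitosis farthest to the left.

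Genes of mitosis fell. In the list of G2/M and mitosis 30 of 50 members fell and 0 rose, with a median log2 fold change of -0.72, and all 50 had a negative fold change. The count was 22 to 32 with 1 library left out, and 46 in the 10-library fit. Of all genes tested 4.11% were called lower. PLK1, a kinase that drives entry into mitosis, was at 33.8, 37.1 and 30.8 CPM in DAC libraries and 80.5, 107 and 92.9 CPM in Control libraries, a 2.76-fold fall (log2 fold change -1.46 ± 0.17, edgeR adjusted p = 0.000228). CDC20, which switches on the anaphase-promoting complex, was at 33.9, 35.9 and 32.4 CPM in DAC libraries and 71.4, 76.5 and 72.6 CPM in Control libraries (edgeR adjusted p = 0.000237). The noncoding CDC20-DT beside it fell as well, with 1.82, 2.24 and 1.5 CPM in DAC libraries and 5.01, 6.25 and 4.98 CPM in Control libraries (edgeR adjusted p = 0.000445). FOXM1, a transcription factor of mitotic genes, was at 39.1, 38.6 and 34.3 CPM in DAC libraries and 67.4, 78.1 and 73.0 CPM in Control libraries (edgeR adjusted p = 0.000295). The mitotic cyclins CCNB1 and CCNB2 fell, with log2 fold changes of -0.75 ± 0.15 and -0.88 ± 0.11. The proliferation marker MKI67 was closer, with 108, 112 and 86.0 CPM in DAC libraries and 181, 114 and 174 CPM in Control libraries, where Control 2 was just above DAC 2, and its edgeR adjusted p of 0.0414 reached 0.164 over the alternatives.

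Fewer genes of S phase were called. In the list of G1/S and replication 5 of 46 fell and 0 rose, with a median of -0.26. Between 1 and 4 fell with 1 library left out, and 19 fell in the 10-library fit. TK1, a thymidine kinase, was at 31.6, 36.9 and 32.6 CPM in DAC libraries and 56.4, 76.0 and 57.9 CPM in Control libraries (log2 fold change -0.91 ± 0.14, edgeR adjusted p = 0.00164). The helicase subunits MCM2 and MCM4 were not called, with log2 fold changes of -0.19 ± 0.29 and -0.18 ± 0.11. Whether mitotic genes fell more than S-phase genes was not tested as a set. Cyclin D1, encoded by CCND1, overlapped between the groups, with 469, 448 and 428 CPM in DAC libraries and 457, 484 and 409.6 CPM in Control libraries. The inhibitor CDKN1A, encoding p21, was at 63.0, 65.0 and 66.9 CPM in DAC libraries and 51.4, 61.2 and 48.4 CPM in Control libraries. It was not called (edgeR adjusted p = 0.174), although its groups did not overlap. The 10-library fit and the correction for GC content called CDKN1A higher. Targets of p53 were split, 3 of 23 higher and 4 lower, and with 1 library left out 1 to 4 were higher and 1 to 4 lower. The shares over all genes tested were 5.33% higher and 4.11% lower.

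The letters TTTGAA, the CHR element through which mitotic genes are repressed outside G2 and M, were in 14.1% of tested genes with a window. They were in 15 of the 24 called members of the mitosis list that had a window (62.5%). Of the 18 members with a window that were not called, 17 held them (94.4%), so the share was not higher in called members. Windows of the 2 called genes with the largest falls that hold both motifs, PLK1 (chr16:23678739-23678908, plus strand) and CKS1B (chr1:154974531-154974700, plus strand), and of the cyclin gene CCNB2 (chr15:59104996-59105165, plus strand), are given with TTTGAA and CCAAT in capitals. TTTGAA begins 29 bases before the start in PLK1 and CCNB2 and 30 bases before it in CKS1B.
PLK1: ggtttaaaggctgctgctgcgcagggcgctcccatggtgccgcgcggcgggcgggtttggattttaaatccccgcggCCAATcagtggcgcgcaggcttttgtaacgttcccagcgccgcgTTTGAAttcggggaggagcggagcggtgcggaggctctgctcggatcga
CKS1B: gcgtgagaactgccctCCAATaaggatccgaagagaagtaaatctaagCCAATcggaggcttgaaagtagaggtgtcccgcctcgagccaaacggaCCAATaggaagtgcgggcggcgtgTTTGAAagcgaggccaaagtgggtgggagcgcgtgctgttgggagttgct
CCNB2: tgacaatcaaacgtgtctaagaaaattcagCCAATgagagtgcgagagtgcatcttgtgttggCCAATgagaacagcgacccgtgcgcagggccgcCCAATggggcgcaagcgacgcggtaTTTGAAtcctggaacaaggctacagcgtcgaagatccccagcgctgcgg

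The integrated stress response acts through the transcription factor ATF4, which raises genes of amino acid synthesis and transport. Of 40 of its targets 14 fell and 1 rose, with a median of -0.43, against 4.11% and 5.33% of all genes tested. Without DAC 3 the number that fell was 5, without DAC 1 or Control 2 it was 9, without DAC 2 it was 10, and it was 29 in the 10-library fit. ASNS, the asparagine synthetase, had the largest fall among genes of at least 5 CPM, with 35.2, 27.6 and 18.0 CPM in DAC libraries and 90.1, 192 and 95.7 CPM in Control libraries (log2 fold change -2.23 ± 0.46, edgeR adjusted p = 0.00889). Control 2 held about the sum of the other Control libraries. That the groups did not overlap is required by the rule for choosing the largest falls. The call of ASNS ended without DAC 3 (adjusted p = 0.0618). MTHFD2, of mitochondrial one-carbon metabolism, was steadier, with 98.6, 106 and 97.2 CPM in DAC libraries and 172, 179 and 173 CPM in Control libraries (log2 fold change -0.80 ± 0.10, edgeR adjusted p = 0.000335). STC2, a secreted glycoprotein, fell to 114, 134 and 108 CPM in DAC libraries, against 232, 223 and 189 CPM in Control libraries (edgeR adjusted p = 0.000978).

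ATF4 itself and its partner DDIT3 (CHOP) were not called, with log2 fold changes of -0.40 ± 0.18 and -0.42 ± 0.21. SLC7A11, the cystine carrier, was at 396, 386 and 392 CPM in DAC libraries and 455, 280.0 and 411 CPM in Control libraries. Control 2 was far below the other Control libraries for SLC7A11, and the log2 fold change of 0.03 ± 0.24 was -0.16 without it. Chaperones of the endoplasmic reticulum, which belong to other branches of the unfolded protein response, were called in 2 of 24 cases, 1 higher and 1 lower. This is near the 9.43% of all genes tested that were called. With 1 library left out 0 or 1 were higher and 0 lower. The letters TGATGNAA are a composite site bound by ATF4 and C/EBP factors. Among genes with a window, 4 of 14 called ATF4 targets (28.6%) and 2.94% of tested genes held this site. The window of ASNS (chr7:97872389-97872558, minus strand), the called target with the largest fall, holds it 68 bases before the start, in capitals here.
ASNS: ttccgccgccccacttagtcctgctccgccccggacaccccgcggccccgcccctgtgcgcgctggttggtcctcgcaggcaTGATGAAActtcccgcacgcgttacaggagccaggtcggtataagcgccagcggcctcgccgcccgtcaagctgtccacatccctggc

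**Figure D4:**
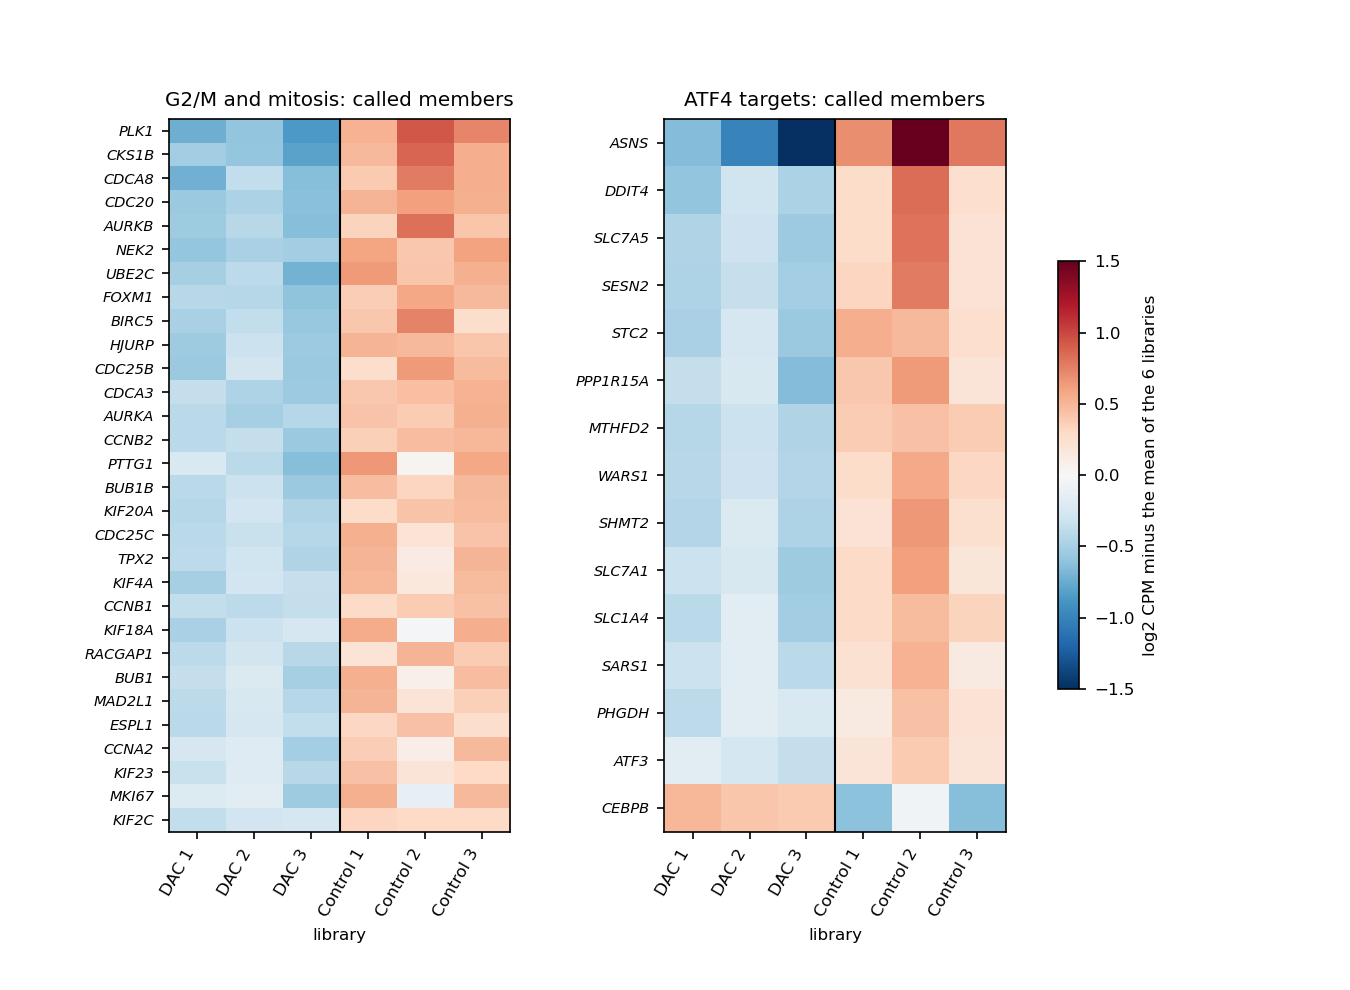
Log2 CPM of each library minus the mean of the 6 libraries for the 30 called members of the mitosis list (left) and the 15 called ATF4 targets (right), with DAC libraries in the left columns of each panel and Control libraries in the right columns. Blue is below and red above the mean. Every mitotic gene is bluer in the DAC libraries than in the Control libraries, and CEBPB is the one ATF4 target that runs the other way.

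In stress and iron genes the calls were mostly rises, beside shares of 5.33% higher and 4.11% lower over all genes tested. Of 31 NRF2 targets, which defend against oxidants, 6 rose and 0 fell, with a median of 0.20 and 4 with any 1 library left out. SRXN1, a sulfiredoxin, was at 8.32, 6.91 and 7.86 CPM in DAC libraries and 1.12, 2.53 and 2.02 CPM in Control libraries (edgeR adjusted p = 0.0064), and HMOX1, the haem oxygenase, at 40.5, 46.8 and 43.8 CPM in DAC libraries and 24.2, 25.7 and 26.7 CPM in Control libraries (edgeR adjusted p = 0.00257). The glutamate-cysteine ligase subunit GCLC was not called, with a log2 fold change of -0.10 ± 0.15. Of 20 iron genes 8 rose and 1 fell, and 7 rose with any 1 library left out. TFRC, the transferrin receptor, which brings iron in, was at 298, 276 and 329 CPM in DAC libraries and 149.8, 117 and 136 CPM in Control libraries (2.24-fold, edgeR adjusted p = 0.000521), and FTL, a subunit of the iron store ferritin, was at 4551, 4548 and 4637 CPM in DAC libraries and 2512, 3017 and 2419 CPM in Control libraries (edgeR adjusted p = 0.0011). A gene of iron uptake and a gene of iron storage were thus both higher in DAC. The heat shock gene HSPB8 rose 5.11-fold, with 43.9, 41.7 and 53.1 CPM in DAC libraries and 9.95, 8.71 and 8.41 CPM in Control libraries (edgeR adjusted p = 4.24e-06).

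Ferroptosis defence and polyamine genes showed no common direction. Over all genes tested 5.33% rose and 4.11% fell. Of 28 genes of ferroptosis defence and lipid peroxidation 4 rose and 3 fell, with 0 to 2 higher and 1 or 2 lower when 1 library was left out. GPX4, the peroxidase at its centre, was at 396, 366 and 412 CPM in DAC libraries and 291, 394 and 325 CPM in Control libraries, which overlapped (edgeR adjusted p = 0.669). GPX4 was called in the 10-library fit. Of 18 polyamine genes SAT1, the acetyltransferase that starts polyamine breakdown, rose to 128, 133 and 153 CPM in DAC libraries, against 79.3, 61.8 and 78.5 CPM in Control libraries (edgeR adjusted p = 0.015, and up to 0.0767 over the alternatives, the call ending without DAC 3 and without Control 2). SMOX, the spermine oxidase, fell to 56.7, 62.0 and 56.4 CPM in DAC libraries, against 108, 164 and 115 CPM in Control libraries (edgeR adjusted p = 0.00472).

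Respiratory chain messages come from both genomes of the cell. Shares over all genes tested were 4.11% lower and 5.33% higher. Of 13 encoded in mitochondria 5 fell and 0 rose, with a median of -0.54, and of 37 nuclear subunits 0 fell and 0 rose by edgeR, with a median of 0.04. Among the nuclear subunits 2 were higher and 2 lower at an unadjusted p under 0.05, DESeq2 called 1 higher and 2 lower, limma-voom 1 higher and 1 lower, and the 10-library fit 1 higher and 4 lower. MT-CYB, of complex III, was at 2968, 2909 and 2442 CPM in DAC libraries and 4573, 4803 and 4556 CPM in Control libraries (edgeR adjusted p = 0.00678). Between 1 and 3 of the 13 fell with 1 library left out, and 12 in the 10-library fit. Mitochondrial genes took 12.52%, 12.32% and 10.39% of the counts in DAC libraries and 15.64%, 13.49% and 15.41% in Control libraries. In bulk samples less RNA per cell and fewer cells of a kind cannot be told apart.

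Genes of the EGFR route mostly fell where they were called, beside shares of 4.11% lower and 5.33% higher over all genes tested. Of 23 receptors and ligands 7 fell and 1 rose, with 4 to 6 lower when 1 library was left out and 13 in the 10-library fit. EGFR was at 1424, 1374 and 1206 CPM in DAC libraries and 2400.4, 2314 and 2069 CPM in Control libraries, with no overlap (log2 fold change -0.76 ± 0.13, edgeR adjusted p = 0.00282). AXL, a receptor kinase known from resistance to EGFR inhibitors, was at 94.2, 93.9 and 83.3 CPM in DAC libraries and 191, 275 and 184 CPM in Control libraries (edgeR adjusted p = 0.0017). MET and ERBB2, other receptors of resistance, were not called, with log2 fold changes of -0.25 ± 0.10 and 0.26 ± 0.18. Of 23 genes that the MAPK pathway switches on 6 fell and 1 rose, 2 to 5 fell with 1 library left out, and 9 fell in the 10-library fit. FOSL1, an AP-1 factor, was at 91.3, 102 and 69.7 CPM in DAC libraries and 209, 256 and 174 CPM in Control libraries (edgeR adjusted p = 0.00344), but DUSP6, the ERK phosphatase most often read as a measure of the pathway, was not called (log2 fold change -0.05 ± 0.14, edgeR adjusted p = 0.868).

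Epithelial, mesenchymal and squamous genes were mixed. KRT7, a keratin of simple epithelia, was at 2498, 2425 and 2665 CPM in DAC libraries and 1315, 1645 and 1295 CPM in Control libraries (edgeR adjusted p = 0.00203), while the tight junction genes TJP1 and CLDN1 fell, with log2 fold changes of -0.73 ± 0.12 and -0.62 ± 0.12 (edgeR adjusted p = 0.00272 and 0.00536). Of 17 mesenchymal markers 4 fell and 1 rose, with 2 or 3 lower when 1 library was left out, and SNAI2, a repressor of epithelial genes, was at 2.13, 2.65 and 2.45 CPM in DAC libraries and 5.96, 6.25 and 4.47 CPM in Control libraries (edgeR adjusted p = 0.00144). Of 6 fibroblast markers DCN was at 0 in all 6 libraries and COL1A1 was the highest, at 9.42 to 10.3 CPM in DAC libraries and 9.31 to 17.9 CPM in Control libraries. The summed level of the 6 was 10.4 to 11.0 CPM in DAC libraries and 11.2 to 22.3 CPM in Control libraries, where Control 2 was the highest. Its part in these calls was not tested. The summed level of 3 endothelial markers was 8.64 to 9.92 CPM in DAC libraries and 4.95 to 5.33 CPM in Control libraries, and that of 4 immune markers 9.16 to 10.1 CPM in DAC libraries and 7.05 to 9.02 CPM in Control libraries. Of the 10 tested genes in the list of immune and endothelial markers 3 rose and 0 fell, and 1 or 2 rose with 1 library left out. VWF, an endothelial gene, was at 3.77, 3.44 and 4.59 CPM in DAC libraries and 0.616, 0.852 and 0.834 CPM in Control libraries (edgeR adjusted p = 0.00437). CSF1R, a receptor of macrophages that is outside the sum of 4, was at 45.9, 43.3 and 47.0 CPM in DAC libraries and 17.9, 24.7 and 19.1 CPM in Control libraries (edgeR adjusted p = 0.0128, and up to 0.0713 over the alternatives). CD14, a receptor of monocytes that is also outside it, was at 4.16, 5.92 and 4.38 CPM in DAC libraries and 2.71, 1.42 and 1.46 CPM in Control libraries (edgeR adjusted p = 0.0452, and up to 0.17 over the alternatives). The part of other cell types in the results was not tested. Of 25 squamous genes 4 rose and 2 fell, with 3 or 4 higher and 1 or 2 lower when 1 library was left out. Over all genes tested 5.33% rose and 4.11% fell. SPRR1A, of the cornified envelope, was at 47.6, 41.6 and 39.1 CPM in DAC libraries and 8.3, 6.75 and 7.44 CPM in Control libraries (edgeR adjusted p = 2.72e-05), and KRT4 fell to 0.258, 0.257 and 0.331 CPM in DAC libraries, against 1.34, 1.16 and 1.58 CPM in Control libraries (edgeR adjusted p = 5.79e-05). Members of the SPRR family are close in sequence, so their counts may be shared.

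In the list of matrix and adhesion genes 4 of 30 fell and 1 rose, and 2 to 4 fell with 1 library left out. Over all genes tested 4.11% fell and 5.33% rose. Among the 15 largest falls TIMP3, an inhibitor of matrix proteases, was at 70.0, 66.6 and 62.9 CPM in DAC libraries and 191, 179 and 186 CPM in Control libraries (log2 fold change -1.48 ± 0.12, edgeR adjusted p = 8.04e-06). IL1RL1, the receptor of interleukin 33, was at 62.4, 66.8 and 56.0 CPM in DAC libraries and 198, 171 and 169 CPM in Control libraries (edgeR adjusted p = 5.08e-05). TNC, the matrix protein tenascin C, was at 48.1, 60.5 and 47.3 CPM in DAC libraries and 126, 204 and 133 CPM in Control libraries (edgeR adjusted p = 0.00343). None of the 3 overlapped between the groups, which the rule for choosing the largest falls requires. ALDH3A1, an aldehyde dehydrogenase, fell to 36.7, 43.0 and 37.2 CPM in DAC libraries, against 104, 145 and 114 CPM in Control libraries (edgeR adjusted p = 0.00252). Outside the lists, QPRT, of NAD synthesis from tryptophan, was among the 10 smallest p-values, with 367, 329 and 383 CPM in DAC libraries and 67.6, 68.0 and 72.6 CPM in Control libraries (5.18-fold, edgeR adjusted p = 2.68e-07).

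Dauricine was also given on top of osimertinib, and the comparison of DAC+OSI with OSI shares no library with that of DAC with Control. It called 9.01% of genes higher and 7.96% lower. Of the 1109 genes higher in DAC than in Control, 996 (89.8%) had a positive fold change in DAC+OSI over OSI, 625 (56.4%) were called higher and 23 were called lower. Of the 855 genes lower in DAC, 710 (83%) had a negative fold change there, 396 (46.3%) were called lower and 26 higher. Over all genes 54% of fold changes were positive in that comparison. The 15 largest rises were all called higher again, with a median log2 fold change of 3.75 there and 3.49 in DAC over Control. Of the 15 largest falls 12 kept their sign and 8 were called lower. KLHDC7B, a protein with kelch repeats, was called in the opposite direction, with 4.23, 5.63 and 3.72 CPM in DAC libraries and 16.5, 22.4 and 16.1 CPM in Control libraries, but a log2 fold change of 1.60 in DAC+OSI over OSI (edgeR adjusted p = 0.000361).

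Tested directly, as the difference between the effects of dauricine with and without osimertinib, the interaction was called for 119 of the 1109 higher genes and 163 of the 855 lower genes, against 2.92% of all genes. Since the call in DAC against Control enters that difference, these shares are given as a description. Control 2 and DAC+OSI 2, which stood apart along GC content, enter the difference with the same sign. Their part in the interaction was not tested. The sterol route was high in both settings: HMGCS1 had a log2 fold change of 3.95 and ACAT2 of 3.84 in DAC+OSI over OSI, and neither was called in the interaction. The 30 mitotic genes that fell in DAC were all called lower in DAC+OSI over OSI too, with -2.44 for PLK1, -2.33 for CDC20 and -2.34 for FOXM1. The interaction was called towards a larger fall with osimertinib for 27 of the 30, PLK1, CDC20 and FOXM1 among them (edgeR adjusted p = 0.0493, 0.00351 and 0.000866), and was not called for CKS1B, CDC25B and KIF2C. The larger falls are counted from OSI libraries. Mean CDC20 was 73.5 CPM in Control, 34.0 in DAC, 111 in OSI and 22.2 CPM in DAC+OSI libraries. Mean FOXM1 was 72.8, 37.3, 121 and 23.9 CPM in the same order. For CKS1B the Control and OSI means were close, at 147 and 148 CPM. CKS1B had a log2 fold change of -1.77 in DAC+OSI over OSI and -1.27 in DAC over Control (interaction, edgeR adjusted p = 0.269). Of the 14 ATF4 targets that fell in DAC, 6 had a negative and 8 a positive fold change in DAC+OSI over OSI, where 1 was called lower and 3 were called higher. MTHFD2 was the one called lower, at -0.61 (edgeR adjusted p = 0.000907), and WARS1, at 0.54 (edgeR adjusted p = 0.00837), was one of those called higher. ASNS was at -0.62 and not called there (edgeR adjusted p = 0.388), and STC2, at 0.23, and SESN2, at 0.45, were not called either. The mean level of ASNS was 126 CPM in Control, 26.9 CPM in DAC, 43.6 CPM in OSI and 28.7 CPM in DAC+OSI libraries. The OSI libraries were thus already below Control for ASNS. The interaction was called for 6 of the 14, STC2, SESN2 and WARS1 among them, and not for ASNS (edgeR adjusted p = 0.229) or MTHFD2.

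**Figure D5:**
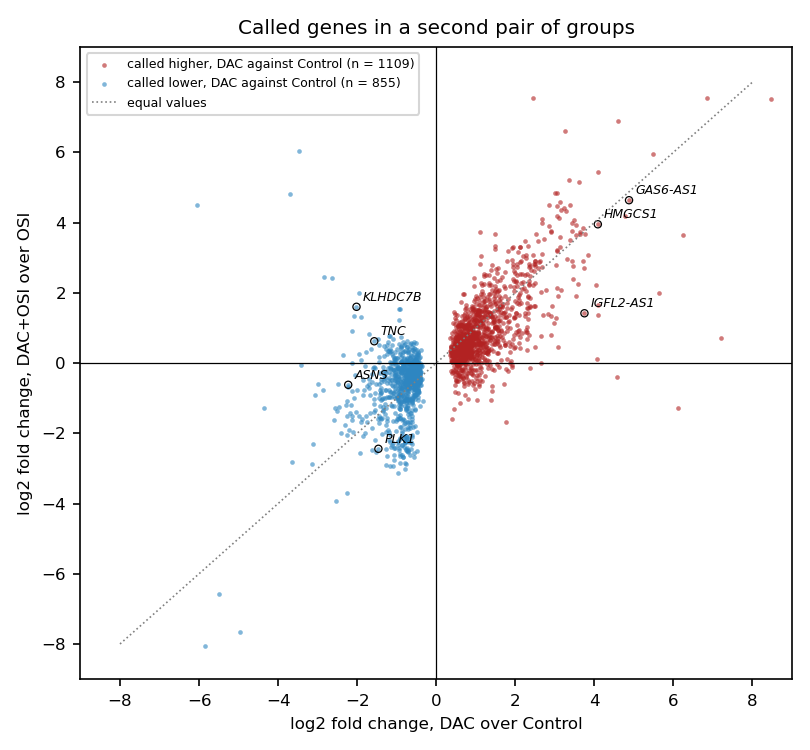
Log2 fold change of DAC+OSI over OSI against that of DAC over Control for the 1964 genes called in DAC against Control. The axes share no library. Points are red for the 1109 called higher and blue for the 855 called lower. Of the red points 89.8% lie above 0 on the vertical axis, and of the blue points 83% lie below it.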

How the data were processed

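Messenger RNA of PC9-OR cells was enriched with oligo(dT) beads, primed with random hexamers and amplified by PCR, per the labels' protocols. The authors deposited unnormalised read counts for Ensembl genes. CASAVA, HISAT2 and featureCounts are named without versions in the submitters' processing notes. The genome build, the annotation and the strand setting are not stated in those notes or in the labels, and promoter windows come from RefSeq (GRCh38.p14), independent of the counts. Symbols were matched for 39178 of 39266 genes, and GENCODE 29 gave GC content for 37919.

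Counts were filtered with filterByExpr of edgeR 4.0.16, scaled with TMM (trimmed mean of M values) and fitted with its quasi-likelihood model over all 12 libraries, 1 mean per group, which share an estimate of the spread (biological coefficient of variation 20.9%). Levels are CPM on the TMM scale, and the standard error (SE) is the log2 fold change over the square root of F. All tests were two-sided, with Benjamini-Hochberg adjustment over 20820 genes. The fit was tested on simulated data, where it called 7.46% of 1.5-fold, 55.7% of 2-fold and 96.5% of 4-fold changes. Of unchanged genes it called 0.0291%. Changes of 2-fold or less were thus often missed there, so a gene not called may still have changed. R 4.3.3, limma 3.58.1 and DESeq2 1.42.0 were used, and alternatives were other scalings, no low-count filter, DESeq2, limma-voom, the 6 libraries alone, each library left out, the 10-library fit, GC offsets and a replicate block. The 54 gene lists and the named genes (the 15 largest called rises and falls of at least 5 CPM, the 10 smallest adjusted p-values, up to 4 called members per list, and the core lipid lists and genes of interest) were chosen with earlier results of these data known. Lists are described by counts and medians, with no test of a list. A few list members enter these counts and medians but are not reported here singly or drawn.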

Additional observations from a re-analysis of the deposited data

Results flagged for a closer look

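The interaction term of edgeR is the effect of dauricine with osimertinib (DAC+OSI over OSI) minus that without it (DAC over Control). With Benjamini-Hochberg adjustment over all genes, it was called for 8 of the 30 genes with the largest changes, against 2.92% of all genes. The 30 were chosen by their values in DAC over Control, which enter the interaction. A smaller effect with osimertinib is favoured by that choice, so the count is a description only. KLHDC7B changed sign, with an interaction of 3.619 on the log2 scale (adjusted p = 0.000151), from log2 fold changes of 1.602 with osimertinib and -2.017 without it. TNC had an interaction of 2.188 (adjusted p = 0.00817), and BEX2 of 2.153 (adjusted p = 0.0042). Both were called lower in DAC against Control, where the fold changes were -1.568 and -1.463. Neither was called in DAC+OSI against OSI, at 0.6202 and 0.6905. The mean level of BEX2 was 10.4 CPM in Control, 3.76 CPM in DAC, 3.78 CPM in OSI and 6.16 CPM in DAC+OSI libraries, so BEX2 in OSI was already near its DAC level. IL1RL1 had an interaction of 1.383 (adjusted p = 0.00352), with -0.1544 with osimertinib and -1.537 without it. For ZBED3 it was 1.325 (adjusted p = 0.0479). The noncoding IGFL2-AS1 rose less with osimertinib, with an interaction of -2.332 (adjusted p = 0.000928) from 1.417 with it and 3.75 without it, and IGFL1P1 likewise, with -1.824 (adjusted p = 0.0033). The mitotic kinase PLK1 had a larger fall in DAC+OSI over OSI than in DAC over Control, with an interaction of -0.9789 (adjusted p = 0.0493). DAC+OSI 2 and Control 2, which stood apart along GC content in the same way, enter this contrast with the same sign. Their part in these values was not tested.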

How the results depend on the processing

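Of the 197 named genes that were called, 136 kept their call under all 15 alternatives, 61 lost it under at least 1, and 0 changed sign. The main calls kept by an alternative ran from 39.5% (without DAC 3) to 99.9% (DESeq2), with 0 in the opposite direction. Genes called higher numbered 2804 in the 10-library fit, 1971 with GC offsets and 502 to 707 with 1 library left out, against 1109. Genes called lower numbered 1414 with DESeq2, 1584 in the 6-library fit, 2737 in the 10-library fit, 1882 with GC offsets and 280 to 608 with 1 library left out, against 855. The share of rises with the same sign in DAC+OSI over OSI was 86.92% with DESeq2, 81.56% in the 10-library fit and 85.34% with GC offsets, and that of falls 76.38% with no filter. Fold changes near 0 turned sign: SLC7A11 was at -0.15 in the 10-library fit, -0.18 with GC offsets and between -0.16 (without Control 2) and 0.154 with 1 library left out, CCND1 at 0.043 in the 10-library fit, 0.018 with GC offsets and between -0.107 and 0.032 (without Control 2), and IGFL2 between -0.084 (without DAC 2) and 0.239. The cause was not tested. The median GC content of called genes was 48.98% for rises and 50.95% for falls, against 49.66% and 48.74% in the 10-library fit. Between DAC and Control, deviations of same-numbered libraries correlated at only -0.0083, 0.034 and 0.059. That comparison did not cover the OSI and DAC+OSI libraries. The library numbered 2 was the one standing apart along GC content among the Control libraries, and again among those of DAC+OSI. Whether libraries of one number shared a batch was not tested. The replicate block called 2408 genes, against 1964 without it. The 10-library fit and GC offsets drop or adjust for libraries seen to stand apart, which by itself lowers the spread, so their higher counts are no independent support.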

Other observations

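The counts given here stand beside shares of 5.33% higher and 4.11% lower over all genes tested. Genes of the circadian clock were called in both directions, 4 of 19 higher and 3 lower, with 2 or 3 higher and 1 to 3 lower when 1 library was left out. BHLHE40, a repressor of the clock and of stress genes, was at 234, 223 and 226 CPM in DAC libraries and 100.5, 98.7 and 97.2 CPM in Control libraries (edgeR adjusted p = 1.2e-05), and PER2 fell by 0.79 on the log2 scale (edgeR adjusted p = 0.00922). Among xenobiotic genes 4 of 26 rose and 5 fell, with 2 or 3 higher and 1 to 5 lower when 1 library was left out. CYP1B1, a monooxygenase, rose 2.03-fold (edgeR adjusted p = 0.00133). Of 14 efflux transporters 3 rose and 0 fell (1 or 2 higher with 1 library left out), among them ABCC5, a nucleotide pump, at 382, 370.2 and 402 CPM in DAC libraries and 201, 201 and 220.5 CPM in Control libraries (edgeR adjusted p = 0.000205). Cytosolic ribosomal proteins and proteasome subunits had 0 calls by edgeR in either direction among 30 members each, with a median of -0.24 for ribosomal proteins. At an unadjusted p under 0.05, 9 ribosomal protein genes were lower and 1 proteasome gene was higher. DESeq2 called 3 ribosomal protein genes lower and 1 proteasome gene higher, limma-voom called 1 ribosomal protein gene lower, and the 10-library fit called 10 ribosomal protein genes lower and 1 proteasome gene in each direction.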
